A study of Mus musculus with 34 samples.

Results

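Gene expression was compared between the left ventricle (LV) of hearts injected with AC modRNA and of hearts injected with Luc modRNA, both collected 4 h after myocardial infarction (MI). These are 8 of the 34 libraries of the series, chosen by their sample labels: 4 AC libraries and 4 Luc libraries. All 8 came from CFW mice, an outbred stock, whose left anterior descending artery was tied off for good to cause MI, with modRNA then injected at once into the border zone of the infarct. The hearts of both groups thus shared the ligation, the injection and the time, and differed in the modRNA they received. Luc is firefly luciferase, used as a control RNA, whereas the labels give AC as an abbreviation only. No age or sex is stated in the labels, nor whether a library came from 1 heart. The same table holds 3 AC and 3 Luc libraries of 24 h, 4 AC and 4 Luc libraries of 48 h and 2 libraries of sham-operated, uninjected hearts of 4 h.

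Modified mRNA (modRNA) is a synthetic messenger RNA with altered nucleosides that cells take up and translate for a short time, without entering the nucleus. Ceramides are lipids with a sphingosine backbone that accumulate in stressed tissue and are linked to cell death. Acid ceramidase, encoded by Asah1, is the lysosomal enzyme that cuts ceramide into sphingosine and a fatty acid. Sphingosine kinases turn sphingosine into sphingosine 1-phosphate, which leaves the cell through the transporter Spns2 and acts on the receptors S1pr1 to S1pr5.

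The values are CPM, reads of a gene scaled to a common library size, adjusted by the TMM method. The libraries held an estimated 17620637 to 21577924 reads on listed genes, and 1 read corresponded to between 0.0287 and 0.0420 CPM. Differences were tested with limma on log2(CPM + 1) over the 12555 genes that averaged 1 CPM or more in the 24 libraries, where a gene was called at a q value (Benjamini-Hochberg adjusted p) under 0.05. The added 1 shrinks the log2 fold changes of weakly expressed genes. Cardiomyocyte markers summed to between 67079 and 98152 CPM and skeletal muscle markers to between 2.06 and 4.45 CPM, which fits the labelled tissue. AC libraries 1 and 2 stood apart from the rest, at -35.0 and 42.4 on a first principal component that held 53.0% of the variance, while the other 6 libraries lay between -9.40 and 10.4. The correlation between these 2 libraries was 0.940, the lowest of any pair. The spread between replicates was larger among the AC libraries than among the Luc libraries for 84.1% of genes, with median SDs of 0.26 and 0.13 on the log2 scale.

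Asah1 rose about 330-fold in the AC hearts and was the only gene called at 4 h post-MI. Its level was 13703, 5597, 5296 and 9230 CPM in AC libraries 1 to 4. In the Luc libraries it was 25.7, 27.2, 23.9 and 25.8 CPM. The lowest AC library thus lay far above the highest Luc library, and the Luc libraries differed little among themselves. The means were 8456 ± 3928 CPM (SD, n = 4) and 25.6 ± 1.35 CPM (SD, n = 4), a ratio of 330 ± 154. The log2 fold change was 8.20 (SE 0.27, 95% interval 7.61 to 8.79) with a q value of 2.2e-07 by limma. A two-sided exact permutation test over the libraries gave p = 0.0286, the smallest that 4 against 4 libraries allow. Asah1 is annotated at chr8:41340646-41374698 on the minus strand of mm10.

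The Asah1 level of the Luc hearts lay near that of hearts without any modRNA. It was 32.9 and 25.1 CPM in the 2 sham hearts, and between 21.7 and 27.4 CPM in the 10 libraries of uninjected hearts of the other table, which was normalized separately. In the AC hearts it was still above the Luc hearts at 24 h, with 305, 104 and 190 CPM against 22.6, 22.0 and 24.7 CPM, and at 48 h, with 42.5, 112, 66.4 and 80.3 CPM against 28.2, 23.5, 21.4 and 25.1 CPM. The ratio of the means was 8.66 ± 4.40 at 24 h (n = 3 in each group, two-sided exact permutation p = 0.1, the smallest possible) and 3.07 ± 1.24 at 48 h (n = 4 in each group, exact p = 0.0286). The AC level at 4 h was 42.3 ± 29.0 times that at 24 h (exact permutation p = 0.0286), and the level at 24 h 2.65 ± 1.69 times that at 48 h (exact p = 0.0857). Adjusted over these 5 comparisons the p-values were 0.0476, except for 0.1 in the AC against Luc comparison at 24 h and in that of 24 h with 48 h. The AC-Luc difference itself was larger at 4 h than at 24 h by 5.27 on the log2 scale (q = 9.8e-05, limma). The difference at 4 h was larger than that at 48 h by 6.70 (q = 2.6e-08, limma). Library titles differ in style between 4 h, 24 h and 48 h, and whether these were prepared together is not stated. For levels compared across times, preparation thus cannot be told apart from time.

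**Figure D1:**
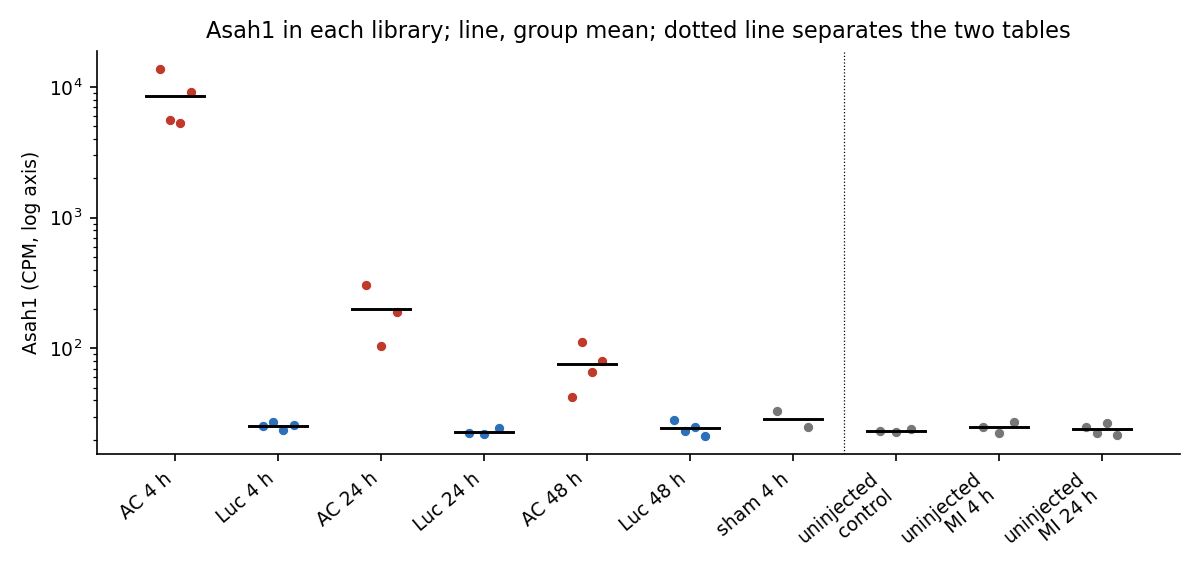
Asah1 level in each library (points) in CPM on a log axis, with group means as lines; AC groups are red, Luc groups blue and uninjected groups grey, and the dotted line separates 2 tables normalized separately. The 4 AC libraries of 4 h sit between 5296 and 13703 CPM, while every Luc, sham and uninjected library sits between 21.4 and 32.9 CPM.

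Asah1 ranked between 3 and 8 among the genes of the AC libraries by CPM and took between 0.788% and 1.74% of their summed values. For the tested genes next to it on chromosome 8 the groups overlapped. Pcm1, which encodes a centriolar satellite protein, was at 34.0 ± 11.7 CPM in AC and 28.4 ± 3.91 CPM in Luc hearts, and Frg1 was at 17.6 ± 6.23 and 15.6 ± 0.683 CPM. Reads of an injected RNA and of the gene's own transcripts are counted together in such a table, so their shares cannot be told apart.

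Beyond Asah1, no gene passed the threshold, and 1 of 12555 genes is 0.00796% of those tested. At an unadjusted p under 0.05 there were 259 genes (2.06%), of which 83 (0.661%) were higher and 176 (1.4%) lower in AC. Without any difference a share of about 0.05 would be expected at such a p, and 2.06% lies below it. The median log2 fold change over all genes was 0.014, and 45.3% of genes lay below 0. Libraries of the 2 groups did not overlap for 254 genes (2.02%), with AC higher for 103 (0.82%) and lower for 151 (1.2%). For the 7437 genes that averaged 10 CPM or more over the 8 libraries, the median half-width of the 95% interval was 0.32 on the log2 scale, or 1.25-fold. Only 13 genes had a log2 fold change of 1 or more in either direction. The count and its split depended on AC library 2, since without it 1207 genes had an unadjusted p under 0.05, 690 of them higher and 517 lower, and array weights gave 629 higher and 521 lower. The split also depended on the scaling, since with all libraries rescaled to equal totals 64.2% of genes lay below 0, with 35 higher and 348 lower at an unadjusted p under 0.05.

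**Figure D2:**
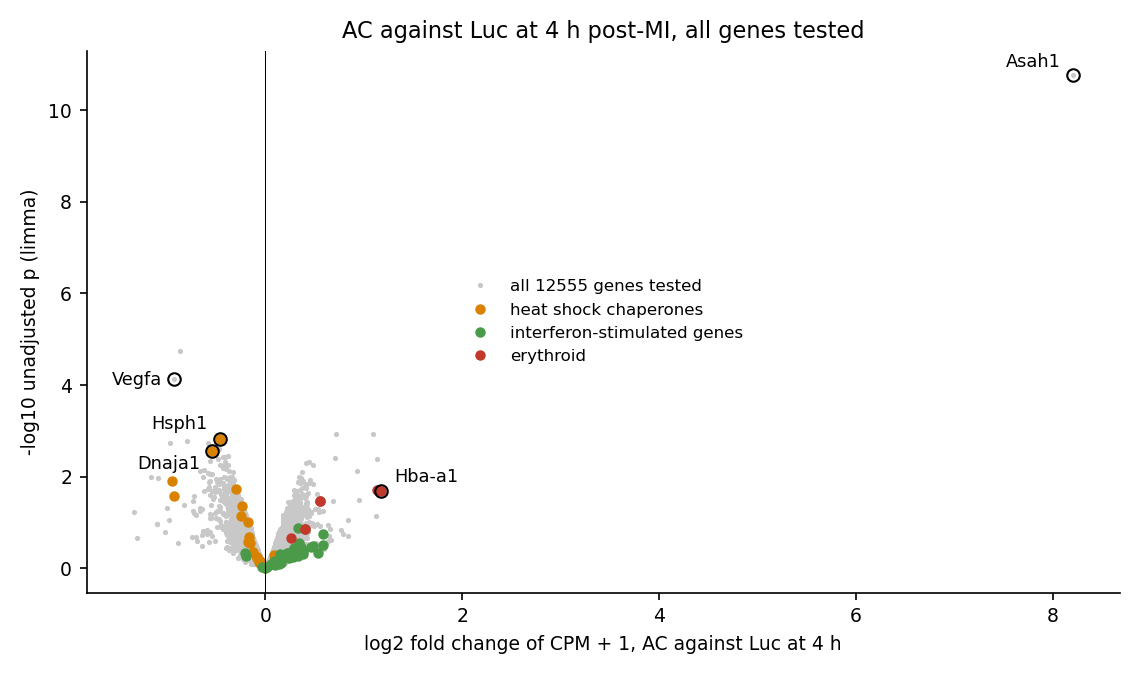
Log2 fold change of CPM + 1 (AC against Luc at 4 h) against -log10 of the unadjusted limma p for the 12555 genes tested, with the genes of 3 lists in colour and 5 genes circled. Asah1 lies alone at 8.20, Vegfa at -0.93, the chaperone genes mostly left of 0 and the interferon-stimulated genes mostly right of 0 at low -log10 p.

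Vegfa, which encodes the main growth factor for blood vessel endothelium, had the second smallest p-value among these more abundant genes. Its level was 187, 232, 213 and 268 CPM in the AC libraries and 397, 490, 359 and 467 CPM in the Luc libraries. All AC libraries lay below all Luc libraries. AC library 1 was the lowest of the 8, and AC library 2 lay between AC libraries 3 and 4. The means were 225 ± 34.2 and 428 ± 61.0 CPM (SD, n = 4 each), a ratio of 0.526. The log2 fold change was -0.93 (SE 0.15, 95% interval -1.25 to -0.60), with a q value of 0.30, so it did not pass the threshold. Across 23 other settings the log2 fold change stayed between -1.01 and -0.83, and the q value fell below 0.05 in 1 of them, limma array weights (q = 0.0148).

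The 2 sham hearts had 135 and 183 CPM of Vegfa, below all 8 libraries of the injected hearts at 4 h. The Luc libraries of 4 h held the 4 highest Vegfa levels of the table. At 24 h Vegfa was at 88.0, 222 and 142 CPM in AC hearts and 139, 94.3 and 93.4 CPM in Luc hearts. At 48 h it was at 159, 171, 159 and 176 CPM in AC and 229, 183, 277 and 199 CPM in Luc hearts. In the other table the uninjected hearts were at 197, 258 and 194 CPM 4 h post-MI. The control hearts there, labelled as without operation but titled sham, were at 307, 218 and 176 CPM. The AC-Luc difference was lower at 4 h than at 24 h by 1.32 and lower than at 48 h by 0.53, and neither difference passed the limma threshold over all genes. The other genes of the hypoxia and glycolysis list, which Vegfa belongs to, were spread evenly. Of its 34 members, 18 were above and 16 below 0, with a median log2 fold change of 0.00. P4ha1, a collagen prolyl hydroxylase subunit, was at 67.4, 46.3, 49.5 and 64.8 CPM in AC and 67.5, 77.4, 67.3 and 74.2 CPM in Luc hearts (unadjusted p = 0.034). The unadjusted p was above 0.05 for the other 32 members.

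Heat shock proteins are chaperones that hold and refold damaged proteins, and their genes are switched on by the factor Hsf1 through heat shock elements in their promoters. Of the 20 chaperone genes, 19 had a log2 fold change below 0, against 45.3% of all genes tested, and the median was -0.16. None passed the threshold. At an unadjusted p under 0.05 there were 6, all lower in AC, against 1.4% of all genes in that direction, and the libraries did not overlap for 5 against 1.2%. Over the other settings the median lay between -0.22 and -0.11 and between 13 and 19 of the 20 genes lay below 0, with 13 when AC library 2 was left out.

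Hsph1, which encodes a large chaperone that assists Hsp70, was at 65.6, 53.4, 63.0 and 64.9 CPM in AC and 79.4, 92.0, 81.0 and 87.3 CPM in Luc hearts. Its log2 fold change was -0.46 (SE 0.11), the largest of the list relative to its SE. Dnaja1, an Hsp40 co-chaperone, was at 82.5, 56.9, 59.4 and 72.1 CPM in AC and 92.1, 108, 88.9 and 102 CPM in Luc hearts. Its log2 fold change was -0.54 (SE 0.14, unadjusted p = 0.0027), and the groups did not overlap for either gene. Hsp90aa1, the inducible cytosolic Hsp90, was at 236, 220, 199 and 219 CPM against 250, 297, 249 and 283 CPM. Hspa5, the Hsp70 of the endoplasmic reticulum, was at 627, 541, 597 and 611 CPM against 729, 699, 710 and 661 CPM. Hspd1, the mitochondrial Hsp60, was at 279, 254, 260 and 261 CPM against 302, 300, 301 and 282 CPM. These 3 genes did not overlap between the groups, with log2 fold changes of -0.30, -0.24 and -0.17.

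The strongly inducible Hsp70 genes Hspa1a and Hspa1b had the largest differences of the list, and their libraries overlapped. Hspa1a was at 16.6, 17.9, 8.61 and 16.4 CPM in AC hearts and 25.2, 40.1, 15.6 and 42.3 CPM in Luc hearts, with a log2 fold change of -0.95 (SE 0.31). Hspa1b was at 24.0, 6.85, 8.22 and 10.4 CPM in AC and 17.9, 28.3, 14.3 and 30.6 CPM in Luc hearts, with a log2 fold change of -0.92 (SE 0.35). These genes are nearly identical in sequence, so the division of reads between them is uncertain. The sham hearts held only 0.544 and 1.14 CPM of Hspa1a. They held 62.1 and 47.8 CPM of Hsph1, 58.3 and 46.4 CPM of Dnaja1 and 212 and 154 CPM of Hsp90aa1. Hspa5 was at 767 and 539 CPM in sham hearts, above and below all injected libraries of 4 h. Hspd1 was at 353 and 302 CPM there, so neither gene was raised over sham in the Luc hearts. Hspa4l, a further Hsp110-type chaperone, was the member above 0, at 0.09.

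The promoter windows of some chaperone genes, from 250 bases before to 50 bases after the annotated start (RefSeq, GRCm38.p6), hold a heat shock element. The motif searched on both strands was GAA, TTC and GAA in a row with NN between each of them, and its reverse complement. It was present in 4 of 16 chaperone genes with a window, and in 0.616% of the tested genes with one. Capitals mark the match, and 5 bases are shown on each side, 5′ to 3′ on the strand of the gene. They are shown because the element is the known binding sequence of Hsf1.
Hsph1, chr5:149636283-149636305, minus strand: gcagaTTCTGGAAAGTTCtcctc
Hspd1, chr1:55088059-55088081, minus strand: gggccTTCCGGAAGGTTCtagaa
Hspe1, chr1:55088054-55088076, plus strand: gtccgTTCTAGAACCTTCcggaa
Chordc1, chr9:18292258-18292280, plus strand: aaccgGAACGTTCGGGAAaattc
Hspd1 and Hspe1 are neighbours that point away from each other, and their windows show overlapping stretches of the same element. The libraries did not overlap for Hsph1 and Hspd1, and overlapped for Hspe1 and Chordc1, with log2 fold changes of -0.01 and -0.08.

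**Figure D3:**
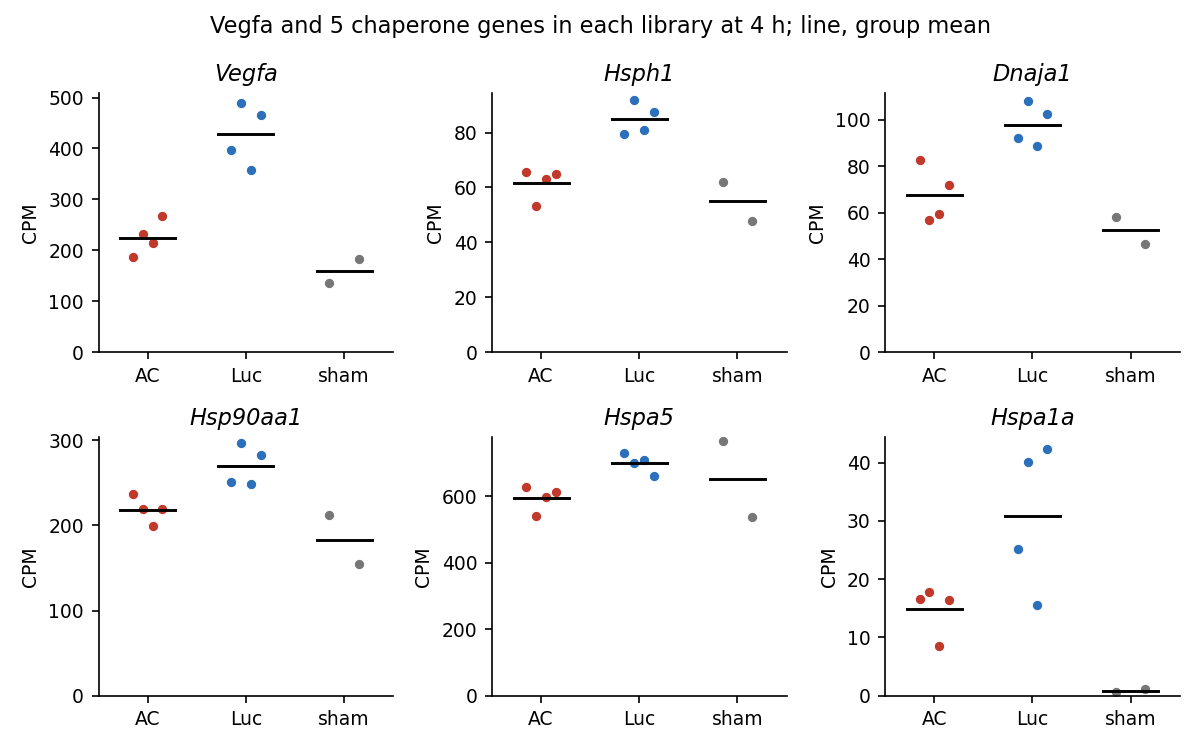
CPM of Vegfa and 5 chaperone genes in each AC, Luc and sham library of 4 h (points), with group means as lines and each axis starting at 0. The AC libraries lie below all Luc libraries for Vegfa, Hsph1, Dnaja1, Hsp90aa1 and Hspa5, and overlap them for Hspa1a.

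No other gene of the sphingolipid pathway was called. Of the 20 genes for ceramidases and sphingosine 1-phosphate, 16 were tested and Asah1 alone was called, with 9 above and 7 below 0 and a median of 0.00. The other ceramidases Asah2, Acer2 and Acer3 were at 14.3 and 11.8, 30.4 and 30.6, and 5.15 and 5.12 CPM as means of AC and Luc hearts. Sphingosine kinases Sphk1 and Sphk2 differed by 0.01 and 0.00 on the log2 scale and the sphingosine phosphate lyase Sgpl1 by -0.01. S1pr1, the main endothelial receptor of the lipid, was at 71.7, 152, 71.5 and 76.0 CPM in AC and 58.4, 68.9, 68.5 and 51.7 CPM in Luc hearts. The groups did not overlap, the value in AC library 2 was far above the others, and the log2 fold change was 0.51 (SE 0.23, unadjusted p = 0.052). Spns2 was at 8.85, 13.6, 13.8 and 13.3 CPM in AC and 15.9, 14.1, 14.9 and 14.4 CPM in Luc hearts, with a log2 fold change of -0.26 (SE 0.15). S1pr5, a receptor known from lymphocytes, lay under the filter of 1 CPM and was named after its values were seen. It was at 0.420, 0.574, 0.619 and 0.734 CPM in AC and 1.15, 1.58, 1.52 and 1.91 CPM in Luc hearts, and without a filter its unadjusted limma p was 1.8e-04 and its q value 0.55.

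Of the 30 genes for ceramide synthesis and sphingomyelin turnover, 26 were tested and none had an unadjusted p under 0.05. The log2 fold changes ranged from -0.22 for Smpd3, a neutral sphingomyelinase, to 0.26 for Degs2, a ceramide desaturase, with a median of 0.02. The genes of the lysosome, where acid ceramidase works, had a median of -0.01 over 27 members. Cathepsin F (Ctsf) was at 31.6, 29.5, 27.4 and 27.3 CPM in AC and 23.8, 24.5, 19.9 and 26.7 CPM in Luc hearts (unadjusted p = 0.035), and the sialidase Neu1 was at 19.3 ± 2.66 and 22.6 ± 2.31 CPM.

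Interferon-stimulated genes, which cells switch on when sensors such as Ddx58 detect foreign RNA, showed a wide spread among the AC hearts. Their summed level was 360, 1750, 1311 and 1185 CPM in AC libraries 1 to 4 and 979, 732, 975 and 696 CPM in the Luc libraries. AC library 1 was thus the lowest of the 8 and the other AC libraries were the 3 highest. Of 36 members tested, 33 lay above 0, none had an unadjusted p under 0.05 and none was free of overlap. The median log2 fold change was 0.22, became 0.60 without AC library 1 and turned to -0.03 without AC library 2. Ifit3b, an antiviral effector, was at 8.88, 34.6, 30.9 and 18.2 CPM in AC and 19.5, 8.63, 19.6 and 9.46 CPM in Luc hearts. Eif2ak2, the kinase PKR that binds double-stranded RNA, was at 14.7 ± 4.31 and 11.4 ± 2.51 CPM.

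Other inflammatory lists lay near 0. The chemokine list had a median of 0.06 over 25 tested genes, the IL-6 family list 0.01 over 14, the list of NF-kB feedback, Tnf and IL-1 genes 0.01 over 28 and the immediate early factors -0.03 over 20. Ccl19, a chemokine for T cells and dendritic cells, was at 3.19, 4.05, 3.42 and 3.60 CPM in AC and 6.47, 5.51, 4.77 and 4.49 CPM in Luc hearts without overlap (unadjusted p = 0.0056). Ptges, which makes prostaglandin E2, was at 1.47 ± 0.433 and 2.62 ± 0.444 CPM, also without overlap (unadjusted p = 0.0046). The monocyte chemokine Ccl7 was at 37.0 ± 3.69 and 30.9 ± 8.64 CPM. Lif and Ctf1, cytokines of the IL-6 family, were at 1.60 ± 0.620 and 1.16 ± 0.447 CPM and at 5.14 ± 0.897 and 4.46 ± 0.512 CPM. The nuclear receptors Nr4a3 and Nr4a1 were at 15.3 ± 3.70 and 20.2 ± 2.58 CPM and at 65.9 ± 12.0 and 74.4 ± 7.40 CPM, and Nfkbid, an inhibitor of the NF-kB family, was at 0.968 ± 0.366 and 1.37 ± 0.300 CPM.

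Of the cell death genes, 19 lay above and 9 below 0, with a median of 0.08. Casp9, the initiator caspase of the mitochondrial pathway, was at 7.21, 7.29, 8.55 and 8.11 CPM in AC and 12.0, 9.26, 10.1 and 9.13 CPM in Luc hearts without overlap (unadjusted p = 0.021). The death receptor Fas was at 19.8, 24.2, 27.8 and 16.0 CPM in AC and 17.6, 14.2, 18.2 and 13.4 CPM in Luc hearts (unadjusted p = 0.035). The ATF4 stress list and the list of oxidative stress genes and metallothioneins had no member with an unadjusted p under 0.05 and medians of 0.03 and 0.06. Their smallest p-values belonged to Sesn2 and Vldlr and to Sod3 and Txnrd1. The ER stress genes Hyou1 and Pdia4, which came up among all genes, are described with the named genes.

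**Figure D4:**
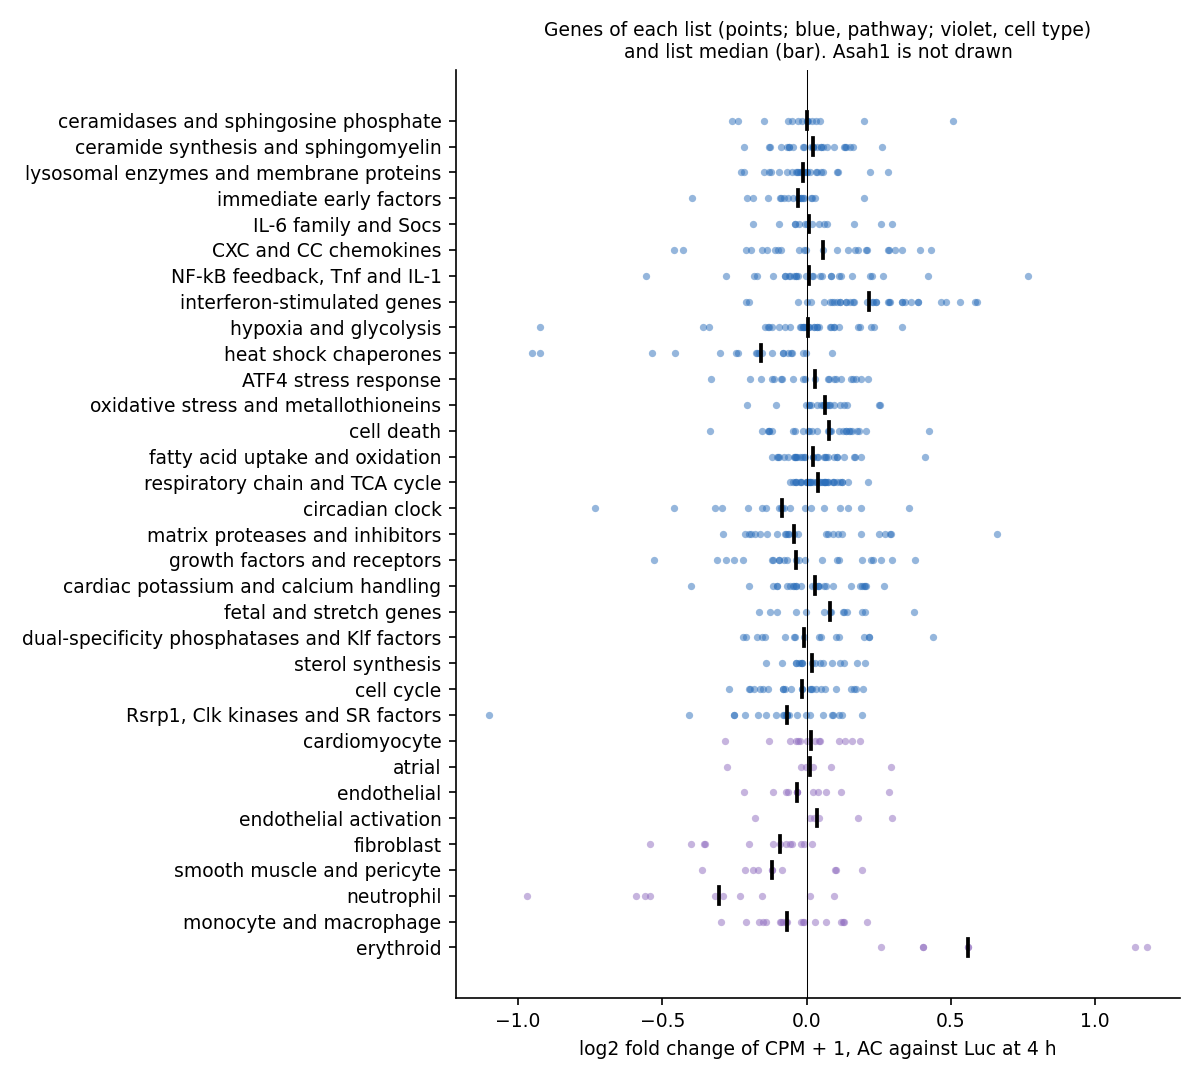
Log2 fold changes of CPM + 1 (AC against Luc at 4 h) of the tested genes of each list with 6 or more of them (points; pathway lists blue, cell type lists violet) and list medians (bars), without Asah1. Most medians lie within 0.10 of 0, and those of the interferon-stimulated genes (0.22), the chaperones (-0.16), smooth muscle cells (-0.12), neutrophils (-0.30) and erythroid cells (0.56) lie farther out.

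Genes of heart muscle metabolism and contraction differed little. The 38 genes of the respiratory chain and TCA cycle had a median of 0.04 and log2 fold changes between -0.06 and 0.21, and Idh3a and Cox4i1 had their smallest p-values. The fatty acid list had a median of 0.02 over 31 genes. In it, the mitochondrial carrier Ucp3 was at 29.8, 24.5, 37.0 and 27.5 CPM in AC and 23.9, 19.1, 23.7 and 21.2 CPM in Luc hearts without overlap (unadjusted p = 0.015), and the fatty acid transporter Cd36 was at 1125 ± 120 and 983 ± 55.0 CPM. Nppb, the precursor of brain natriuretic peptide and a stretch marker, was at 429, 395, 422 and 360 CPM in AC and 324, 310, 271 and 337 CPM in Luc hearts. Its groups did not overlap and its log2 fold change was 0.37 (SE 0.11, unadjusted p = 0.0079), while the median of the 14 fetal and stretch genes was 0.08 and Fhl1 was at 178 ± 20.2 and 162 ± 17.7 CPM. Ion channel and calcium genes had a median of 0.03, with Trdn at 185 ± 18.6 and 162 ± 10.3 CPM and Cacna1g at 16.7 ± 5.33 and 21.7 ± 3.09 CPM.

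The remaining pathway lists had medians between -0.09 and 0.02. The clock list had the lowest of these, -0.09 over 19 genes, with Dbp at 9.32, 5.79, 6.24 and 12.2 CPM in AC and 24.2, 8.96, 16.0 and 11.1 CPM in Luc hearts (unadjusted p = 0.033) and Per3 at 5.38 ± 1.82 and 7.52 ± 1.04 CPM. Among growth factors and receptors the apelin receptor Aplnr was at 12.8, 12.6, 9.50 and 22.8 CPM in AC and 21.7, 19.7, 19.3 and 20.5 CPM in Luc hearts (unadjusted p = 0.031), with AC library 4 above all Luc libraries, and Bmp2 was at 1.61 ± 0.386 and 2.15 ± 0.179 CPM. In the list of splicing factors, Luc7l3 was at 24.8, 25.0, 21.1 and 24.2 CPM in AC and 27.2, 29.2, 28.5 and 28.7 CPM in Luc hearts without overlap, and Rsrp1 was at 30.8 ± 5.51 and 41.2 ± 7.53 CPM. Of the 24 members of that list 17 lay below 0, or 70.8% against 45.3% of all genes tested. Their log2 fold changes ran from -1.10 to 0.19. The libraries did not overlap for 2 of them, both lower in AC, against 1.2% of all genes in that direction. The lists of matrix proteases, dual-specificity phosphatases and Klf factors, sterol synthesis and the cell cycle had no member with an unadjusted p under 0.05. In them, the smallest p-values belonged to Mmp2 and Timp4, Dusp8 and Klf4, Sc5d and Hmgcs1, and Ccnd1 and Birc5.

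Among the genes named over the whole table, Asah1 alone passed the threshold, and the others are those with the smallest unadjusted p among genes that averaged 10 CPM or more and did not overlap between groups. The q value was 1 for all of them but Asah1 and Vegfa. Higher in AC were Gstp1, a glutathione transferase, at 202 ± 34.5 against 123 ± 25.2 CPM, and the predicted gene Gm6981, at 101 ± 50.8 against 42.2 ± 10.0 CPM. Gstp1 has a close paralog, so its reads may be divided. Pdp2, a phosphatase that activates pyruvate dehydrogenase, was at 13.7 ± 1.63 against 9.78 ± 0.989 CPM. Tmed5, a cargo receptor of the early secretory pathway, was at 19.0 ± 2.13 against 14.6 ± 1.41 CPM. Inpp4b, a phosphoinositide phosphatase, was at 12.8 ± 2.56 against 9.34 ± 0.977 CPM, Abhd18 at 25.5 ± 4.12 against 19.6 ± 0.384 CPM and Ppp6c, a catalytic subunit of protein phosphatase 6, at 25.5 ± 2.68 against 20.6 ± 0.473 CPM. Across the 24 libraries Gm6981 lay between 32.8 and 171 CPM in 14 and at or below 2.27 CPM in the other 10, without values between.

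On the lower side, next to Vegfa, Hsph1 and Dnaja1, came a pair of further chaperone-type proteins of the endoplasmic reticulum. Hyou1, an Hsp70 relative, was at 40.2, 35.7, 36.2 and 45.8 CPM in AC and 52.2, 51.3, 50.2 and 51.0 CPM in Luc hearts, a log2 fold change of -0.37 (SE 0.11). Pdia4, a disulfide isomerase, was at 25.4, 22.6, 22.2 and 30.1 CPM in AC and 33.7, 31.0, 34.5 and 33.6 CPM in Luc hearts, a log2 fold change of -0.40 (SE 0.12). Both had Luc libraries close together and all AC libraries below them. Slc44a2, a choline transporter-like protein, was at 71.2 ± 6.61 against 92.8 ± 3.29 CPM. Serping1, the inhibitor of complement C1, was at 89.4 ± 8.56 against 119 ± 13.9 CPM. The matrix protein Emilin2 was at 13.7 ± 2.74 against 20.6 ± 4.19 CPM, Plekha6 at 54.6 ± 7.17 against 70.4 ± 4.81 CPM and the ephrin ligand Efna5 at 11.4 ± 0.950 against 14.5 ± 0.530 CPM. Sh3rf3, a ubiquitin ligase with SH3 domains, has a mean under 10 CPM and was named after its values were seen. It was at 0.713, 0.603, 0.328 and 0.624 CPM in AC and between 1.75 and 1.95 CPM in Luc hearts, with a log2 fold change of -0.87 and a q value of 0.12.

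No marker of another cell type passed the threshold, and no list's summed level separated the groups. In bulk tissue fewer cells of a type cannot be told apart from less RNA per cell. The 7 tested erythroid genes all lay above 0 with a median of 0.56, and their list summed to 11432, 3404, 2838 and 6991 CPM in AC libraries 1 to 4 and to 3138, 2657, 2106 and 2455 CPM in the Luc libraries. AC libraries 1 and 4 were the highest, as they were for Asah1, and a link between these levels was not tested. Hba-a1, a globin, was at 5935, 1462, 1248 and 3385 CPM in AC and 1265, 1204, 823 and 1111 CPM in Luc hearts, and its near-identical copy Hba-a2 was between 946 and 4314 and between 661 and 974 CPM. Their unadjusted p-values were both 0.020 by limma, and of the 8 markers Slc4a1 lay under the filter. Hbb-b2 and Hbb-bt share the same annotated position and the same values, and Hbb-b1 and Hbb-bs are annotated at nearly the same place. The 7 genes are thus fewer than 7 separate measurements.

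Fibroblast markers had 12 of 13 genes below 0 with a median of -0.09, and summed to between 2030 and 2447 CPM in AC and between 2308 and 2739 CPM in Luc hearts. Lrrc15 was at 15.8, 20.2, 19.7 and 30.0 CPM in AC and 28.8, 31.5, 32.9 and 30.6 CPM in Luc hearts, and Col3a1, a fibrillar collagen, at 133, 167, 143 and 205 CPM against 240, 191, 232 and 188 CPM. AC library 4 overlapped the Luc libraries for both genes. Neutrophil markers had 8 of 10 tested genes below 0 with a median of -0.30. They summed to 91.3, 138, 125 and 40.9 CPM in AC and 189, 97.7, 147 and 88.0 CPM in Luc hearts. The granule gene Ngp was at 0.671, 0.718, 1.42 and 0.257 CPM in AC and 3.29, 1.37, 3.08 and 2.10 CPM in Luc hearts, with AC library 3 above Luc library 2 and a log2 fold change of -0.97 (SE 0.23). S100a9, a subunit of calprotectin, was at 41.2 ± 17.2 and 58.4 ± 21.4 CPM. Endothelial markers summed to between 711 and 1028 CPM in AC and between 830 and 927 CPM in Luc hearts, with a median of -0.03, and monocyte and macrophage markers to between 335 and 449 and between 364 and 499 CPM, with a median of -0.07. In these lists the smallest p-values belonged to Robo4 and Cldn5 and to Lyve1 and Cx3cr1.

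The remaining marker lists were short or lay near 0, and beside them the cardiomyocyte list had a median of 0.02, with Ttn at 1491 ± 529 and 1730 ± 84.3 CPM and Tnnc1 at 3041 ± 1061 and 2578 ± 313 CPM in AC and Luc hearts. Smooth muscle and pericyte markers had a median of -0.12 over 10 genes (Myh11 and Mylk), atrial markers 0.01 over 6 (Dkk3 and Myl4), endothelial activation markers 0.04 over 6 (Selplg and Sele), platelet markers 0.06 over 3 (Itga2b and Pf4) and lymphocyte markers -0.12 over 2 (Ptprc and Cd3e), where the genes in parentheses had the smallest p-values. Adipocyte markers had a median of -0.55 over 3 genes of very low level. Among them Cidec was at 0.210, 0.373, 0.509 and 0.257 CPM in AC and 1.64, 0.632, 1.29 and 0.589 CPM in Luc hearts without overlap, and Adipoq, the gene of adiponectin, lay between 0.257 and 1.97 CPM in AC and between 1.30 and 2.41 CPM in Luc hearts. The mesothelial marker tested, Wt1, differed by -0.08 and the sex-linked one, Xist, by -0.30. Xist was at 50.6, 177, 58.6 and 53.2 CPM in AC and 74.7, 104, 99.0 and 84.7 CPM in Luc hearts. The Y-linked markers Ddx3y, Kdm5d, Uty and Eif2s3y were not among the listed genes. The part of the cell types above in the differences of Vegfa and the chaperone genes was not tested.

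**Figure D5:**
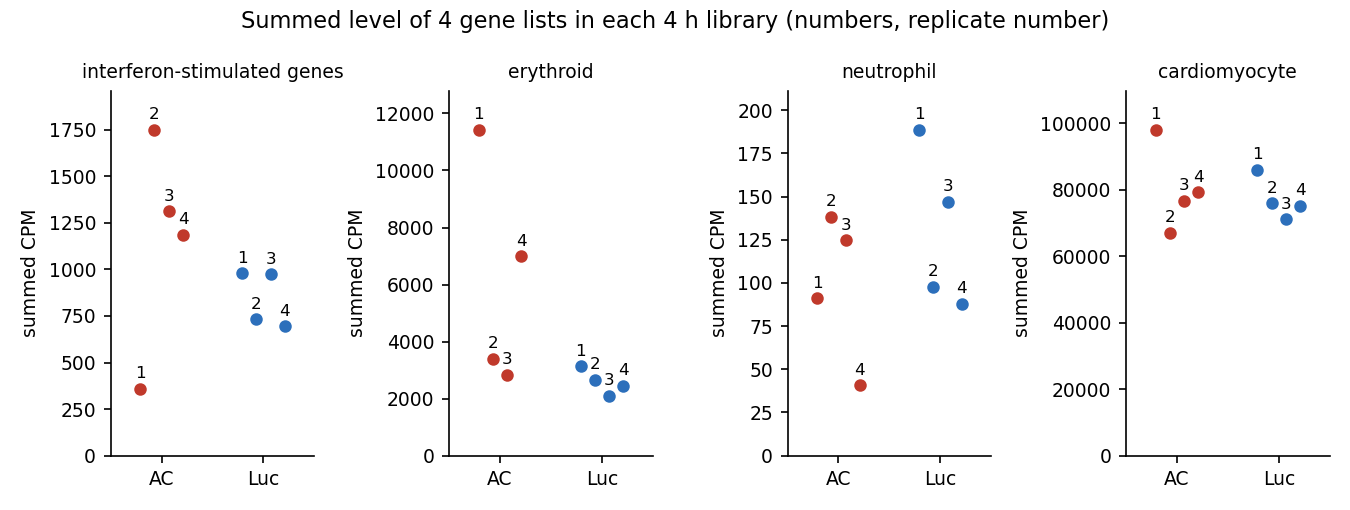
Summed CPM of 4 gene lists in each 4 h library, with the replicate number beside each point. AC libraries 1 and 2 lie at opposite ends for the interferon-stimulated genes (360 and 1750 CPM) and the cardiomyocyte markers (98152 and 67079 CPM), and AC libraries 1, 2 and 4 lie above all Luc libraries for the erythroid markers.

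Whether AC modRNA shifted the early response to the infarct was examined with genes defined in other animals. The other table holds uninjected hearts 4 h post-MI and control hearts. The controls are labelled as without operation, while their titles and the paper call them sham. Of that table's genes, 138 had a q value under 0.05 and rose by at least 1 on the log2 scale 4 h post-MI. Of the 137 tested here, 88 lay above and 49 below 0 in AC against Luc hearts, with a median of 0.05. This is 35.8% below 0, against 45.3% of all genes tested. Of them 8 had an unadjusted p under 0.05, 4 in each direction, or 5.84% against 2.06% of all genes. Without any difference a share of about 0.05 would be expected at such a p, and 5.84% lies near it. Globins made up the higher ones, Hba-a1, Hba-a2, Hbb-b1 and Hbb-bs, and the lower ones were Hspa1a, Hspa1b, Nr4a3 and Otud1, a deubiquitinase. Hbb-b1 and Hbb-bs are annotated at nearly the same place, and Hba-a1 and Hba-a2, like Hspa1a and Hspa1b, are near-identical. The 8 genes are thus fewer than 8 separate measurements, so the share of 5.84% counts some signals more than once. Of the 96 genes that fell by at least 0.5 there, 39 lay above and 57 below 0, with a median of -0.02 and 4 at an unadjusted p under 0.05, or 59.4% below 0 and 4.17% at that p. These lists were defined in other animals, and no test of the lists was made.

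The AC-Luc difference at 4 h was set against those at the later times. Against 24 h, Asah1 was the only gene for which it differed (q value under 0.05 in 0.00796% of genes tested). Against 48 h it differed for 563 genes (4.48%), being higher at 4 h for 71 and lower for 492. Of the 48 h libraries, Luc 1 and Luc 3 stood apart, at 42.0 and 51.3 on a first component on which the other 6 lay between -26.9 and 5.01. Without them the count was 183, with 29 higher and 154 lower, and without Luc library 1 of 4 h it was 238. Rescaling by median ratios gave 187 higher and 318 lower of 505.

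Of the genes named above other than Asah1, the difference between 4 h and 48 h passed the threshold for Hsph1, Dnaja1, Hyou1, Pdia4, P4ha1, Casp9, Dbp, Aplnr, Bmp2, Ccnd1, Birc5 and Col3a1, lower at 4 h, and for Fas, Cd36, Timp4 and Acer2, higher at 4 h. S1pr2 and Ptprc were also called, lower at 4 h, and so was Cx3cr1, without its direction given here. The chaperones Dnaja1 and Hsph1 and the ER proteins Pdia4 and Hyou1 had a log2 fold change below 0 at 4 h and above 0 at 48 h, 0.55, 0.78, 1.02 and 0.59 respectively. Their differences between the times were -1.09, -1.24, -1.42 and -0.96, and without Luc 1 and Luc 3 of 48 h the q values were 0.041, 0.12, 0.017 and 0.079. Of all 12555 genes tested, 4.48% were called, and 183 genes were called without Luc 1 and Luc 3 of 48 h. Of the lists, the cell cycle had 22 of 24 members called, all lower at 4 h, and 12 without those libraries. Its median at 4 h was -0.02. Fibroblast markers had 5 of 13 called, all lower, and 3 without those libraries. Monocyte and macrophage markers had 8 of 19 called, 7 of them lower, and 2 without those libraries, while none of the 36 interferon-stimulated genes and none of the 26 genes of ceramide synthesis and sphingomyelin was called. In the list of ceramidases and sphingosine 1-phosphate, S1pr2 and Acer2 were called beside Asah1, and 2 of these 3 genes without those libraries, from log2 fold changes of -0.24 and -0.03 at 4 h.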

How the data were processed

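RNA was sequenced from stranded mRNA libraries, and whether strand was used in counting is not given in the sources used here. The authors deposited CPM values per gene, scaled by TMM, in the table of 24 libraries with 1 added to every value. The study's methods, which describe the 10 uninjected libraries, name STAR, mm10 and Partek E/M on RefSeq. Here the 1 was subtracted and log2(CPM + 1) was analysed with limma 3.58.1 in R 4.3.3 (trend, no replicate block, 8 libraries) for genes that averaged 1 CPM or more over 24 libraries. Depth was estimated from the CPM value of 1 read, 0.0287 to 0.0420 CPM, and between 86.4% and 87.5% of values were whole reads within 0.05. The 10 libraries were normalized separately and served for levels and for the infarct gene lists. The labels state no separate animals, so p-values measure the spread between these samples. The scripts were tested on simulated data. The genes and lists were chosen with earlier results of these data known.

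The text names the 10 genes of each direction with the largest change at a q value under 0.05 among genes that averaged 10 CPM or more and did not overlap between groups, filled up by smallest unadjusted p, and in each of 24 pathway lists and 16 marker lists the genes with a q value under 0.05 (at most 6) or else the 2 with the smallest p. The result of 1 marker list is not reported here. Alternatives were other pseudocounts, filters, scalings and limma settings, a replicate block, other sets of libraries, leaving out each library, and voom on estimated reads. Whether replicate numbers 1 to 4 pair AC and Luc samples is not stated. Deviations from the group means correlated between same-numbered libraries at 0.25, 0.23, -0.14 and 0.10. Without a reference for unpaired samples, these values cannot decide it.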

Additional observations from a re-analysis of the deposited data

Results flagged for a closer look

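Single libraries stood far from the other 3 of their group in 8 of 150 checks over 75 genes. Chance gives about 1 in 20, so the number is near that share. Many of the genes were chosen for small p-values or lack of overlap, so this reference is rough. AC library 2 was apart for S1pr1 (152 CPM, others 71.5 to 76.0), Vldlr (335 CPM, others 226 to 242) and Birc5 (0.431 CPM, others 0.655 to 0.698). AC library 1 was apart for Spns2 (8.85 CPM, others 13.3 to 13.8) and AC library 3 for Hspa1a (8.61 CPM, others 16.4 to 17.9). Among the Luc libraries, library 4 was apart for Hspd1 (282 CPM, others 300.2 to 302), library 3 for Tmed5 (16.8 CPM, others 13.8 to 14.1) and library 2 for Trdn (177 CPM, others 155 to 158).

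The AC-Luc difference of Asah1 was larger at 4 h than at 24 h by 5.27 and than at 48 h by 6.70 on the log2 scale. For the other genes the difference at 4 h minus that at 48 h passed the threshold by limma over all genes. It was -1.24 for Hsph1, -1.09 for Dnaja1, -0.96 for Hyou1 and -1.42 for Pdia4, all chaperone or protein folding genes. It was -2.93 for Aplnr, -0.96 for Bmp2, -2.36 for Col3a1 and -1.14 for P4ha1. It was -1.77 for Birc5 and -0.96 for Ccnd1, both cell cycle genes, -0.76 for Casp9 and -1.99 for Dbp. It was 1.33 for Fas, 1.18 for Cd36 and 2.35 for Timp4. Without Luc libraries 1 and 3 of 48 h the q value was under 0.05 for Asah1, Dnaja1, Pdia4, P4ha1, Aplnr, Bmp2, Birc5 and Col3a1, and above it for Hsph1, Hyou1, Casp9, Fas, Cd36, Dbp, Timp4 and Ccnd1.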

How the results depend on the processing

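Asah1 was called in all 23 other settings, with a log2 fold change between 7.93 and 8.39. The count of called genes at 4 h was 1, and became 4 without a filter on low values (Asah1, Sh3rf3, Pou5f1 and Pou5f1-rs4), 4 with array weights (Asah1, Sh3rf3, Vegfa and 4632428C04Rik) and 4 without AC libraries 1 and 2 (Asah1, Fam19a2, Rpl21 and Slc40a1). Leaving out 1 library gave between 1 and 2, with Fam19a2 added without AC library 1 and 4632428C04Rik without AC library 2. The cause was not tested. Unadjusted p-values under 0.05 numbered 259, and 1207 without AC library 2, 1150 with array weights, 724 without AC libraries 1 and 2, 583 without a filter, 443 without AC library 1, 428 without AC library 4, 154 without Luc library 4, 169 without Luc library 2, 120 at a mean of at least 10 CPM and 131 with all 24 libraries in 1 model. With the replicate block the count at 4 h was 1, and whether the numbers pair the samples is not known. No paired fit was made for 24 h, whose replicates carry letters.

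The difference from 24 h was called for 1 gene, for 4 without a filter, and for 1 with each of the 8 libraries of 4 h left out in turn. No library of 24 h or 48 h was left out singly. The difference from 48 h was called for 563 genes, and for 374 with a pseudocount of 0.1, 162 at a mean of at least 10 CPM, 999 after equal-total rescaling, 1430 with array weights, 282 with the replicate block, 293 with voom, 161 without AC libraries 1 and 2 of 4 h and 183 without Luc libraries 1 and 3 of 48 h. Leaving out 1 library of 4 h gave between 238 (without Luc library 1) and 613, with 272 without AC library 3, 307 without Luc library 3, 364 without Luc library 4 and 373 without Luc library 2. Voom, a mean of at least 1 CPM over the 8 libraries, and leaving out these pairs of libraries were chosen after seeing the data. Of the remaining values, 1964 kept direction and call or stayed within the limits set, 11 medians of the interferon, neutrophil, erythroid and chemokine lists moved by more than the median SE, and 5 values of Sh3rf3, Vegfa and 4632428C04Rik became significant. No value reversed its direction among those called. Depth limits genes near 1 CPM, where 1 read is worth up to 0.0420 CPM.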
